A study of Homo sapiens with 24 samples.

Results

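The OSMR and IL6-family signaling genes described here are OSMR, LIFR, IL6R and IL6ST, which encode receptor chains, LIF and IL11, which encode ligands, STAT3, the transcription factor at the end of the pathway, and SOCS3, its feedback inhibitor. These 8 genes were picked by name from the 23106 gene symbols counted in each library. The samples were 24 RNA-seq libraries from A549 (lung), HCT-116 (colorectal), PC3 (prostate) and T47D (breast) cells, 4 established human cancer cell lines. Each line was kept in normoxia (21% oxygen) or hypoxia (0.5% oxygen for 16 h), with 3 libraries in each of the 8 groups and no other agent or genetic change named in the labels. A549 and PC3 cells were grown in F12K medium, HCT-116 cells in McCoy's 5a medium and T47D cells in DMEM, so that line and medium cannot be told apart where lines differ, except between A549 and PC3 cells, and within a line both oxygen states shared 1 medium. Each line stands for a single tumor grown as a culture. Libraries held between 22698584 and 62850747 counts, with a median of 56109796. The shallowest were PC3 normoxia replicate 1 at 22698584 counts and HCT-116 hypoxia replicate 3 at 23497800 counts.

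Most IL6-family cytokines signal through IL6ST (gp130), the signaling chain that they share, together with further receptor chains. Oncostatin M can signal through IL6ST paired with OSMR or through IL6ST paired with LIFR, LIF signals through LIFR and IL6ST, and interleukin-6 and interleukin-11 first bind IL6R or IL11RA. The receptor chains carry Janus kinases, which phosphorylate STAT3, and STAT3 then enters the nucleus and switches on its targets, SOCS3 among them. In epithelial cells and in tumors the pathway is known for the acute-phase response, for wound repair and for survival signals. Hypoxia acts on transcription largely through the hypoxia-inducible factors, which bind DNA at the letters ACGTG or GCGTG.

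The oxygen labels were checked first with 8 genes known to rise in hypoxia (CA9, NDRG1, ANGPTL4, ADM, VEGFA, EGLN3, PDK1 and SLC2A1). All 8 were upregulated in A549, HCT-116 and T47D cells and 7 of 8 in PC3 cells, where the log2 fold change of PDK1, a kinase that restrains pyruvate use, was 0.11 (adjusted p = 0.496). The line labels were checked with tissue markers, given here as mean CPM in normoxia, which are counts scaled to the size of the library. T47D cells carried GATA3 at 739 CPM beside ESR1 and PGR, and their 3 breast markers summed to 1576 CPM against 1.53 to 19.8 CPM in the other lines. PC3 cells carried HOXB13 at 74.5 CPM and had KLK3 at 0. HCT-116 cells carried CDX2 at 11.8 CPM with VIL1 at 0. The 4 colon markers together did not set HCT-116 cells apart, since they summed to 12.1 CPM there and to 16.1 CPM in A549 cells, where CDH17 led at 15.1 CPM. In A549 cells the lung markers NKX2-1, SFTPB and NAPSA summed to 0.477 CPM, so this line could not be recognized as lung from them.

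OSMR (chr5:38845960-38945698, plus strand, GRCh37, 18 exons in its longest transcript) encodes the receptor chain that is specific to oncostatin M and interleukin-31, and it was the only member upregulated in hypoxia in all 4 lines. Of all genes tested, 17.6% were upregulated in A549, 23.3% in HCT-116, 16.6% in PC3 and 6.55% in T47D cells. The share upregulated in all 4 lines is not given here, and the trait is not particular to OSMR, since ICAM1 (below) had it too. In A549 cells OSMR stood at 126, 125 and 134 CPM in the 3 normoxic libraries and at 292, 224 and 228 CPM in the hypoxic ones. In HCT-116 cells it stood at 51.2, 35.5 and 51.0 CPM in normoxia and at 102, 159 and 137 CPM in hypoxia. In each of these lines the lowest hypoxic library lay above the highest normoxic library. In PC3 cells the values were 75.4, 79.1 and 57.1 CPM in normoxia and 98.6, 91.5 and 96.7 CPM in hypoxia. In T47D cells they were 34.7, 37 and 46.7 CPM in normoxia and 76.7, 80.5 and 53.7 CPM in hypoxia. The oxygen states did not overlap here either, but T47D hypoxia replicate 3 came close to normoxia replicate 3. In bulk RNA a change in the share of cells that express a gene and a change in the RNA per cell cannot be told apart.

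OSMR was 2.85-fold higher in hypoxia in HCT-116 cells (log2 fold change 1.51 ± 0.22 SE, adjusted p = 0.000197) and 1.93-fold higher in A549 cells (0.95 ± 0.12, adjusted p = 0.000255; edgeR's quasi-likelihood test with Benjamini-Hochberg adjustment over all genes, n = 3 per state, as for all adjusted p-values below). It was 1.75-fold higher in T47D cells (0.81 ± 0.21, adjusted p = 0.0265) and 1.34-fold higher in PC3 cells (0.42 ± 0.12, adjusted p = 0.0245). The calls in A549 and HCT-116 cells held whichever library was left out. In PC3 cells the call was lost without any 1 of the hypoxic libraries (adjusted p from 0.0620 to 0.0791 without replicates 1, 2 and 3) and in a single fit of the 24 libraries (0.126). In T47D cells it was lost without hypoxia replicate 1 or 2 or normoxia replicate 1 or 2 (0.0952 to 0.166) and with scaling to library totals (0.0537). The labels do not say whether replicates were separate cultures, so that the p-values measure the spread between these libraries, which may be technical.

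The increase of OSMR differed between the lines (interaction of line and hypoxia, adjusted p = 0.0213), at a background of 18.3% of 16089 genes with such a difference. It was smaller in PC3 than in HCT-116 cells by 1.17 on the log2 scale (SE 0.27, adjusted p = 0.00708), where 14.9% of all genes differed. The other 5 pairs of lines did not pass the threshold: the difference between HCT-116 and A549 cells was 0.68 (95% confidence interval 0.15 to 1.2, adjusted p = 0.0807) and that between T47D and A549 cells was -0.07 (-0.59 to 0.46). The difference between T47D and PC3 cells, with 2.25% of all genes, was 0.42 (-0.10 to 0.95). The interaction of OSMR was lost without HCT-116 hypoxia replicate 2 or 3 or normoxia replicate 2, and without PC3 hypoxia replicate 2 or 3 or normoxia replicate 1 or 2 (adjusted p from 0.0509 to 0.0768). It was also lost with the replicate number as a block (adjusted p = 0.0504) and when replicate number 1 or 2 was left out of all lines (0.0735 and 0.538).

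In normoxia OSMR was highest in A549 cells (129 ± 4.81 CPM, SD, n = 3), followed by PC3 (70.5 ± 11.8), HCT-116 (45.9 ± 8.98) and T47D cells (39.5 ± 6.36). A549 exceeded PC3 (adjusted p = 0.00105) and PC3 exceeded HCT-116 (adjusted p = 0.00567), whereas HCT-116 and T47D cells did not differ beyond their spread (adjusted p = 0.18). Levels differed between lines for 93.5% of all genes tested, so that a difference of this kind is common. By pair of lines, the share of all genes that differed was 60% between A549 and PC3, 65.6% between PC3 and HCT-116, 68.5% between HCT-116 and T47D, 64.9% between HCT-116 and A549, 66.6% between T47D and A549 and 67.8% between T47D and PC3 cells. In hypoxia the means were 248 ± 38.3 CPM in A549, 133 ± 28.6 CPM in HCT-116, 95.6 ± 3.69 CPM in PC3 and 70.3 ± 14.5 CPM in T47D cells, an order that was not tested.

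The plot of member levels by library shows these values for the 8 genes.

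**Figure D1:**
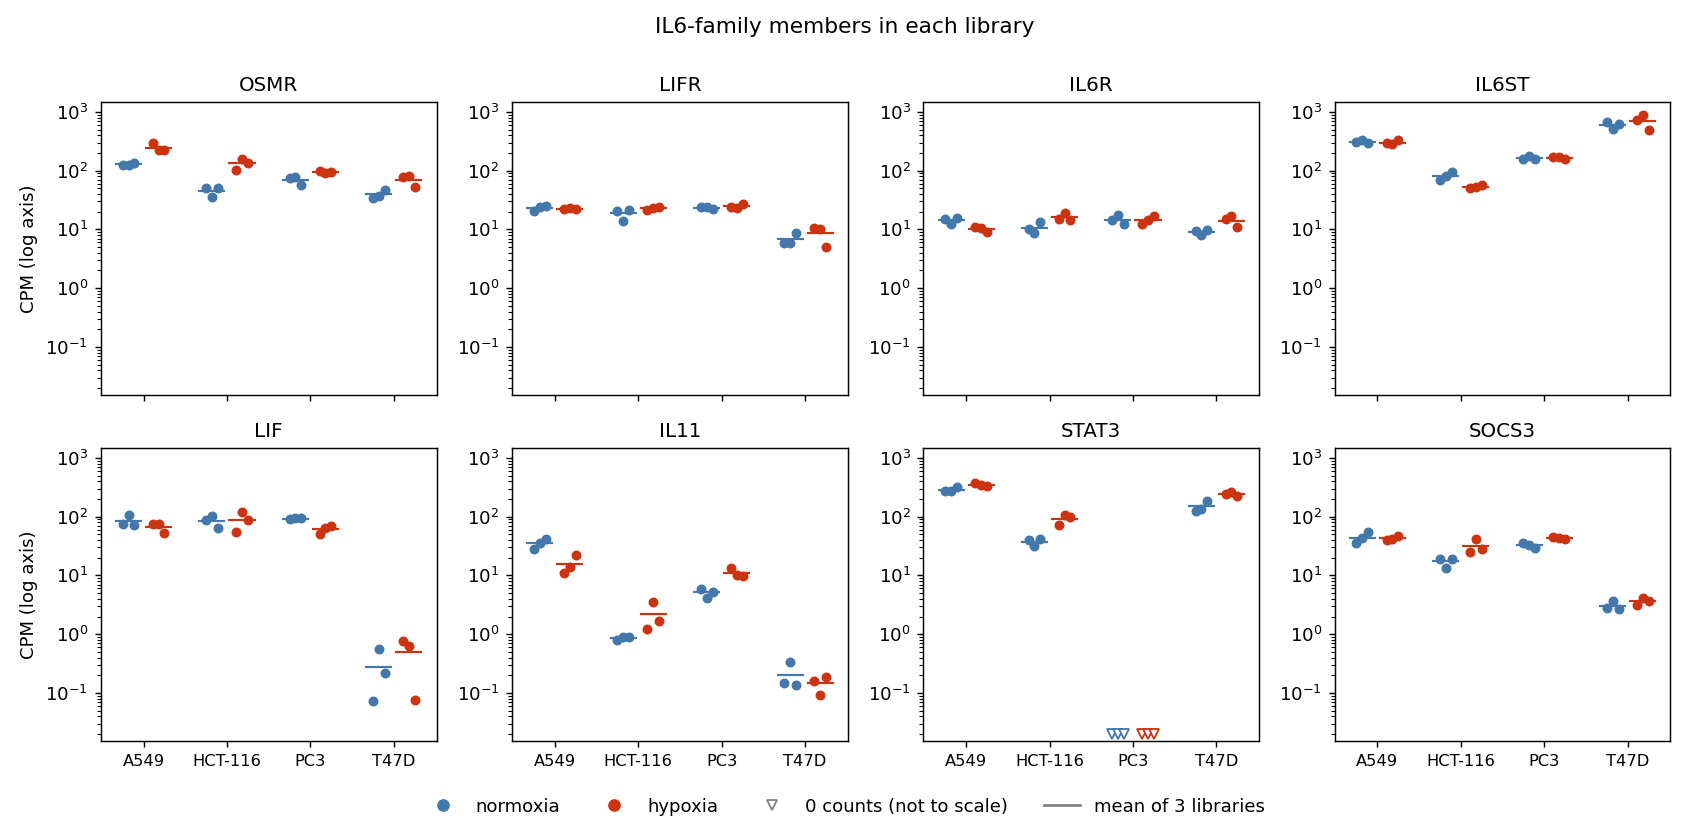
Level of each of the 8 genes in each of the 24 libraries, in CPM on a log axis, with 1 panel per gene and the cell lines along the horizontal axis; points are single libraries, bars the mean of 3 libraries, blue normoxia, red hypoxia, and open triangles 0 counts (not to scale). OSMR has every hypoxic point above every normoxic point of the same line, LIFR has overlapping points in each line, and STAT3 is at 0 in the 6 PC3 libraries.

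Because the data show OSMR moving in each line, the DNA around its start is shown with the parts that hold or lack the core letters of the hypoxia response. Sequences are from RefSeq's promoter table on GRCh38.p14 and were matched to GRCh37, on which the coordinates are given, and the capitals mark ACGTG or GCGTG on either strand. The stretch before the OSMR gene (chr5:38845864-38845959, plus strand, bases 250 to 155 before the RefSeq start) held neither, and the core letters stood 35 bases after the start, in a 28-base site at chr5:38846136-38846163. Upstream stretches of STAT3 (chr17:40540559-40540710, minus strand) and IL11 (chr19:55881832-55882081, minus strand), described below, are shown for comparison because they moved with hypoxia in several lines.

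OSMR upstream: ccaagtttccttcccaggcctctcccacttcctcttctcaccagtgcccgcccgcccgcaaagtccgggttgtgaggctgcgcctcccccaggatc

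OSMR site after the start: gggccgcctctgCACGTccgccccggag

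STAT3 upstream: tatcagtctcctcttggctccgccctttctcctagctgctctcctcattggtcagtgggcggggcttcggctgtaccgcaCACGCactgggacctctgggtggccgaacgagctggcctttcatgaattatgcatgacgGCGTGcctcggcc

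IL11 upstream: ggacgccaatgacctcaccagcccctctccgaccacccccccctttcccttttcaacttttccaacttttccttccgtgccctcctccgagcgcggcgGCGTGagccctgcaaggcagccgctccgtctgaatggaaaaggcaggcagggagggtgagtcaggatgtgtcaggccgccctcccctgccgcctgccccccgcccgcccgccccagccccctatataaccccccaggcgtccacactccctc

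STAT3 held the core letters 170 and 111 bases before its start, and IL11 held them 152 bases before. In the windows from 250 bases before to 50 bases after a start, 8 of the 10 entries of the 7 members in the table held ACGTG or GCGTG (entries of OSMR, LIFR, STAT3, SOCS3 and IL11), against 48.4% of 35116 windows of all genes. Entries of 1 gene can overlap. LIFR, which did not pass the test in hypoxia in any line, held the letters as well. The letters TTCNNNGAA, to which STAT factors bind, were found on either strand in the window of LIFR alone, against 7.66% of all windows. A match of this kind describes the letters and not a bound site.

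LIFR (chr5:38474770-38608456, minus strand) encodes the receptor chain for LIF, which oncostatin M can use in place of OSMR, and it lies 238 kb from OSMR. It was the only member without a call in any line. Its log2 fold changes in hypoxia were -0.05 ± 0.12 SE in A549 cells, 0.28 ± 0.20 in HCT-116 cells, 0.06 ± 0.10 in PC3 and 0.33 ± 0.29 in T47D cells (adjusted p between 0.264 and 0.791). The highest upper bound of the 95% confidence intervals was 0.91, in T47D cells. There the log2 fold change was 0.61 without hypoxia replicate 3 (adjusted p = 0.0724) and 0.15 without hypoxia replicate 1 (0.824). In A549 cells LIFR stood at 20.7, 24 and 25.4 CPM in normoxia and at 22.4, 23.0 and 22.3 CPM in hypoxia. In T47D cells, where LIFR was lowest, it stood at 5.82, 5.95 and 8.54 CPM in normoxia and at 10.7, 10.2 and 5.06 CPM in hypoxia. The states overlapped in both lines, as they did in HCT-116 and PC3 cells. Normoxic LIFR stood close together in PC3 (23.5 ± 1.07 CPM, SD, n = 3), A549 (23.4 ± 2.44) and HCT-116 cells (18.8 ± 4.11), with no difference beyond the spread between neighbors (adjusted p of 0.814 and 0.224), and it was lower in T47D cells (6.77 ± 1.53, adjusted p = 4.09e-06 against HCT-116 cells). With fold changes corrected for GC content and length of the transcripts, a step chosen after the data were seen, the value in HCT-116 cells was 0.55 and passed the test (adjusted p = 0.0397). On the other side of OSMR, RICTOR, a subunit of the mTORC2 kinase complex, was not called in any line either. RICTOR overlaps the annotated end of OSMR by 7.68 kb on the opposite strand, and since the sources used here do not state whether fragments were counted by strand, fragments from the shared part cannot be told apart.

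OSMR and LIFR were set against each other as the alternative partners of IL6ST for oncostatin M, and their ratio within a library does not depend on how libraries are scaled. The ratio rests on the same counts as the changes of each gene above and is not independent evidence of them. The log2 ratio of their counts was higher in every hypoxic than in every normoxic library of the same line. In A549 cells it was 2.61, 2.38 and 2.40 in normoxia and 3.70, 3.28 and 3.35 in hypoxia, and in HCT-116 cells 1.32, 1.34 and 1.23 in normoxia and 2.26, 2.76 and 2.50 in hypoxia. In PC3 cells it was 1.67, 1.70 and 1.35 against 2.04, 1.97 and 1.84, and in T47D cells 2.57, 2.64 and 2.45 against 2.85, 2.98 and 3.41. On average over the lines the log2 ratio rose by 0.77 (two-sided exact permutation of oxygen states within lines, 160000 arrangements, p = 1.25e-05, the smallest value this test can give), with increases of 0.98, 1.21, 0.38 and 0.52 in A549, HCT-116, PC3 and T47D cells. Within a single line 3 libraries against 3 cannot go below p = 0.1 in this exact test. Per base of transcript, OSMR was 10.6 times as abundant as LIFR in normoxic and 21.0 times in hypoxic A549 cells, 4.69 and 10.9 times in HCT-116 cells, 5.72 and 7.39 times in PC3 cells, and 11.2 and 16.3 times in T47D cells.

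**Figure D2:**
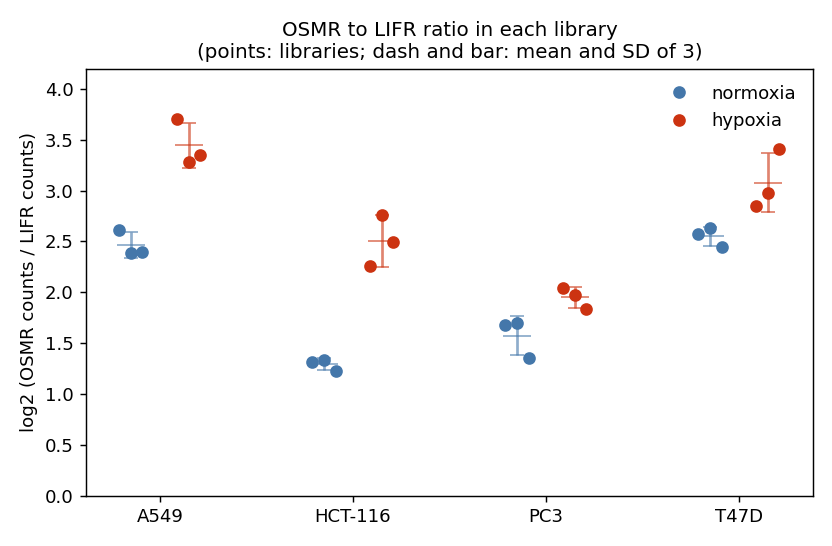
Log2 ratio of OSMR to LIFR counts by cell line, with 1 point per library, blue for normoxia and red for hypoxia, and the mean and SD of 3 libraries as a dash and bar. In each line the 3 hypoxic points lie above the 3 normoxic points, with the widest gap between means in HCT-116 cells (1.21) and the narrowest in PC3 cells (0.38).

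IL6ST (chr5:55230923-55290850, minus strand), the shared signaling chain, did not follow OSMR. It was downregulated in HCT-116 cells alone among the tested lines, from 70.4, 80.7 and 93.4 CPM in normoxia to 51.0, 53.1 and 56.6 CPM in hypoxia (log2 fold change -0.63 ± 0.18 SE, adjusted p = 0.0123). The states did not overlap there. This call was lost with the GC and length correction (-0.25, adjusted p = 0.269) and without hypoxia replicate 1 or 3 or normoxia replicate 3 (adjusted p from 0.0611 to 0.0697). In the other lines the log2 fold changes were -0.04 in A549, 0.00 in PC3 and 0.19 in T47D cells, with 95% confidence intervals of -0.25 to 0.18, -0.17 to 0.18 and -0.32 to 0.71. The interaction of line and hypoxia did not pass the threshold (adjusted p = 0.0933), although it did with DESeq2 (0.0202), with a minimum mean count of 50 (0.0442) and without T47D hypoxia replicate 3 (0.0102) or normoxia replicate 1 (0.0498). Of the single pairs, T47D exceeded HCT-116 cells by 0.79 (SE 0.24, adjusted p = 0.0431), with 9.07% of all genes. IL6ST was most abundant in T47D cells (602 ± 89.6 CPM in normoxia, SD, n = 3), followed by A549 (310 ± 22.5), PC3 (164 ± 10.8) and HCT-116 cells (81.5 ± 11.5), and each neighbor in this order differed from the next (adjusted p from 8.42e-05 to 0.000423).

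IL6R (chr1:154377669-154441926, plus strand), the binding chain for interleukin-6, moved in opposite directions. It was downregulated in A549 cells, from 15.0, 12.6 and 15.6 CPM to 11.1, 10.8 and 9.04 CPM (log2 fold change -0.47 ± 0.15 SE, adjusted p = 0.0249). It was upregulated in HCT-116 cells, from 10.2, 8.78 and 13.2 CPM to 14.9, 19.4 and 14.3 CPM (0.57 ± 0.21, adjusted p = 0.0386). Neither line had overlapping states. In T47D cells the change was 0.62 ± 0.22 (adjusted p = 0.0786), which passed in the single fit of 24 libraries (0.71, adjusted p = 0.0125) and without hypoxia replicate 3 (0.78, adjusted p = 0.0161), and in PC3 cells it was -0.04 ± 0.15. The hypoxia effect on IL6R differed between lines (adjusted p = 0.0105), with HCT-116 above A549 cells by 1.16 (SE 0.28, adjusted p = 0.00938; 16.7% of all genes differed between these lines) and T47D above A549 cells by 1.18 (SE 0.28, adjusted p = 0.0239; 2.11% of all genes). The A549 call was lost in the single fit of 24 libraries (adjusted p = 0.109) and the HCT-116 call with library totals (0.0525). Each single-line call was also lost when certain single libraries were left out (A549 hypoxia replicate 2 or 3 or normoxia replicate 1 or 3, adjusted p from 0.0592 to 0.0750; HCT-116 hypoxia replicate 2 or 3 or normoxia replicate 1 or 2, 0.0525 to 0.140), and the HCT-116 value shrank to 0.15 with the GC and length correction (adjusted p = 0.576). Normoxic IL6R ran from 9.04 ± 1.03 CPM in T47D to 14.7 ± 2.43 CPM in PC3 cells and differed between the 4 lines (adjusted p = 0.00584), a difference that was lost without replicate number 1 or 2 of all lines (0.0768 and 0.0880). Between neighbors T47D was not separable from HCT-116 cells (adjusted p = 0.176), HCT-116 not from A549 (0.107) and A549 not from PC3 (0.719).

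Of the 2 ligands among the members, IL11 (chr19:55875750-55881831, minus strand) had opposite changes in different lines. In A549 cells IL11 fell from 28.4, 36.0 and 42.1 CPM in normoxia to 11.1, 13.8 and 22.1 CPM in hypoxia, a 2.27-fold decrease (log2 fold change -1.18 ± 0.22 SE, adjusted p = 0.00188). In PC3 cells it rose from 5.93, 4.19 and 5.28 CPM to 13.3, 9.99 and 9.81 CPM, a 2.13-fold increase (1.09 ± 0.18, adjusted p = 0.00381). The states did not overlap in either line. In HCT-116 cells IL11 was scarce and rose from 0.811, 0.884 and 0.899 CPM to 1.24, 3.60 and 1.69 CPM (1.30 ± 0.43, adjusted p = 0.0228), with hypoxia replicate 2 far above the others. Without that library the change was 0.75 (adjusted p = 0.208), and without normoxia replicate 1 the adjusted p was 0.0510. The hypoxia effect on IL11 differed between lines with the smallest interaction p of the 8 members (adjusted p = 0.000852). It was higher than in A549 cells by 2.61 in HCT-116 (SE 0.46, adjusted p = 0.00109) and by 2.31 in PC3 cells (SE 0.43, adjusted p = 0.00597), the latter where 0.758% of all genes differed. T47D cells gave 6 to 22 counts of IL11 per library, and the filter removed the gene from the fit of that line. In the single fit of 24 libraries its log2 fold change there was -0.48 (adjusted p = 0.533). Normoxic IL11 was highest in A549 (35.5 ± 6.82 CPM, SD, n = 3), followed by PC3 (5.13 ± 0.879), HCT-116 (0.865 ± 0.0471) and T47D cells (0.203 ± 0.11), each below the one before it (adjusted p from 9.19e-08 to 3.46e-05).

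LIF (chr22:30636442-30642748, minus strand), the ligand of LIFR, was downregulated in PC3 cells from 90.2, 93.4 and 93.8 CPM to 49.9, 63.8 and 70.6 CPM (log2 fold change -0.61 ± 0.12 SE, adjusted p = 0.00668), without overlap. In a single fit of all 24 libraries, in which the lines share their estimate of the spread, this call was lost (adjusted p = 0.309). The log2 fold change of LIF was -0.32 ± 0.17 in A549 cells (adjusted p = 0.175) and 0.02 ± 0.27 in HCT-116 cells, where the hypoxic libraries ran from 55.0 to 121 CPM around normoxic values of 63.6 to 101 CPM. With the GC and length correction the A549 value was -0.51 and passed (adjusted p = 0.0283). T47D cells gave 3 to 47 counts of LIF per library, against 2106 or more in the other lines. Normoxic LIF levels of A549, HCT-116 and PC3 cells (84.6 ± 19.4, 84.2 ± 18.9 and 92.5 ± 1.99 CPM) did not differ beyond their spread (adjusted p from 0.588 to 0.931). OSM, the gene of oncostatin M itself, gave 0 to 4 counts in every library of the 4 lines.

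STAT3 (chr17:40465342-40540558, minus strand) was upregulated in HCT-116 cells from 40.2, 31.3 and 41.4 CPM in normoxia to 71.6, 109 and 98.9 CPM in hypoxia, a 2.44-fold increase (log2 fold change 1.29 ± 0.21 SE, adjusted p = 0.000329). In T47D cells it rose from 126, 136 and 186 CPM to 247, 266 and 223 CPM (0.69 ± 0.21, adjusted p = 0.0464). In A549 cells it stood at 269, 270 and 316 CPM in normoxia and at 382, 341 and 328 CPM in hypoxia (0.30 ± 0.12, adjusted p = 0.0592 by edgeR and 0.0333 by DESeq2). The states did not overlap in any of these lines, although the A549 call depended on the tool and was made by edgeR without hypoxia replicate 3 (0.0380) or normoxia replicate 3 (0.0201). The T47D call was lost without hypoxia replicate 1 or 2 or normoxia replicate 1 or 2 (adjusted p from 0.145 to 0.224), with library totals (0.59, adjusted p = 0.0698) and with the GC and length correction (0.54, adjusted p = 0.0585). In normoxia STAT3 was highest in A549 cells (285 ± 27 CPM, SD, n = 3), lower in T47D (149.5 ± 32.3, adjusted p = 0.000339) and lower again in HCT-116 cells (37.6 ± 5.51, adjusted p = 4.58e-07). The hypoxia effect was larger in HCT-116 than in A549 cells by 1.10 (SE 0.25, adjusted p = 0.00764). The interaction over lines (adjusted p = 0.0243) rose above the threshold without A549 hypoxia replicate 2 or 3, any A549 normoxia replicate, HCT-116 hypoxia replicate 2 or 3, HCT-116 normoxia replicate 2 or PC3 normoxia replicate 1 (adjusted p from 0.0501 to 0.0862), and when any 1 replicate number was left out of all lines (0.0658, 0.491 and 0.0862).

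PC3 cells had no STAT3 counts at all, with 0 counts in each of their 6 libraries. A count of 0 allows up to 3 counts in a library, which is 0.0517 to 0.123 CPM at these depths, while the lowest of the 18 libraries of the other lines stood at 31.3 CPM. STAT3 was thus at least 255-fold lower in each PC3 library, a bound that covers counting error only. The neighbors were examined after this value was seen. Along chromosome 17, 11 consecutive annotated genes from DHX58 to PTRF (chr17:40253422-40575274, 322 kb) had 0 counts in all PC3 libraries. Of these, 8 averaged at least 50 counts in the other lines, among them STAT5B and STAT5A, which encode related transcription factors, RAB5C, a regulator of endosome traffic, KAT2A, a histone acetyltransferase, and PTRF, a component of caveolae. RAB5C averaged 231 CPM and PTRF 584 CPM in the other lines. The genes that flank the run had few counts in PC3 cells, with 0 to 8 for ZNF385C and 0 to 13 for ATP6V0A1. ZNF385C was scarce in the other lines too (mean 0.624 CPM), unlike ATP6V0A1 (68.3 CPM). DNAJC7 and COASY, farther out, averaged 76.6 and 106 CPM in PC3 cells. Over the genome, 293 of 13302 genes that averaged at least 50 counts in the other lines were at 0 in all PC3 libraries.

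**Figure D3:**
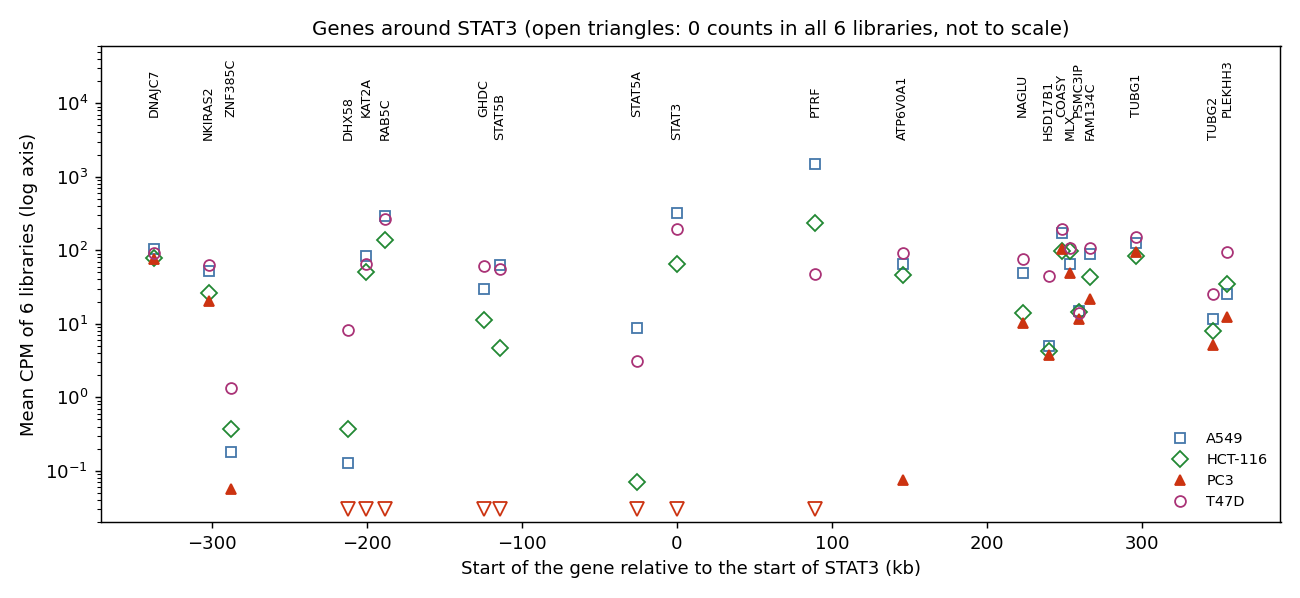
Mean level of annotated genes around STAT3 over the 6 libraries of each cell line, in CPM on a log axis, against the start of the gene relative to that of STAT3 in kb; open triangles stand for 0 counts in all 6 libraries and are not to scale. PC3 cells have such a triangle at DHX58, KAT2A, RAB5C, GHDC, STAT5B, STAT5A, STAT3 and PTRF, and their points at DNAJC7 (76.6 CPM) and COASY (106 CPM) lie near those of the other lines. Their points at NAGLU (10.1 CPM) and FAM134C (21.9 CPM) lie below those of each other line.

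SOCS3 (chr17:76352859-76356158, minus strand), which STAT3 induces and which blocks signaling at IL6ST, was upregulated in HCT-116 cells from 19.2, 13.6 and 19.0 CPM to 24.7, 41.8 and 28.7 CPM (log2 fold change 0.85 ± 0.22 SE, adjusted p = 0.00659). In PC3 cells, which gave no STAT3 counts, SOCS3 rose from 35.8, 33.0 and 29.5 CPM to 45.8, 43.3 and 41.7 CPM (0.39 ± 0.10, adjusted p = 0.0167). The states did not overlap in either line. The PC3 call was lost without hypoxia replicate 1 or 2 (adjusted p of 0.0631 and 0.06) and in the single fit of 24 libraries (0.44, adjusted p = 0.158), and the value was 0.21 with the GC and length correction (adjusted p = 0.0961). The change was -0.05 ± 0.15 in A549 cells and 0.25 ± 0.29 in T47D cells, where SOCS3 was lowest at 3.01 ± 0.55 CPM in normoxia, below HCT-116 cells at 17.3 ± 3.17 CPM (adjusted p = 2.13e-08). PC3 cells at 32.8 ± 3.14 CPM lay above HCT-116 cells (adjusted p = 0.000599) and did not differ beyond the spread from A549 cells at 44.2 ± 9.7 CPM (adjusted p = 0.108). HCT-116 exceeded A549 cells in the hypoxia effect by 1.02 (SE 0.27, adjusted p = 0.0149), while the interaction over the 4 lines stood at an adjusted p of 0.0521. That interaction passed with DESeq2 (0.0499) and without HCT-116 hypoxia replicate 1 (0.0251), HCT-116 normoxia replicate 3 (0.0490) or T47D hypoxia replicate 3 (0.0453).

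By line, the 8 members gave 1 increase and 2 decreases in A549 cells (upregulated 17.6% and downregulated 17.8% of all genes tested) and 5 increases and 1 decrease in HCT-116 cells (23.3% and 27% of all genes). In PC3 cells 3 of 7 tested members rose and 1 fell (16.6% and 15.7% of all genes). In T47D cells 2 of 7 rose (6.55% of all genes) and 0 fell (6.69%), the last count being 0 at an unadjusted p under 0.05 and by DESeq2 as well. The median log2 fold change of the tested members was -0.05 in A549, 0.71 in HCT-116, 0.06 in PC3 and 0.62 in T47D cells, beside -0.01, -0.03, -0.01 and -0.01 for all genes. Scaling to library totals moved the median of all genes to -0.13 in A549 and -0.12 in T47D cells and the share of increases among the calls to 33.9% in A549 cells (49.8% with TMM scaling) and 32.1% in T47D cells (49.5%), and in PC3 cells the increases made up 51.5% of the calls and 67.1% in the single fit of 24 libraries. In all, 15 of the 30 tested pairs of member and line were called, 11 up and 4 down, where 35.5% of all genes were called in either direction in A549, 50.3% in HCT-116, 32.3% in PC3 and 13.2% in T47D cells. None of the 15 had overlapping states, but a call itself makes overlap unlikely, so that this is no separate result. Of the tested pairs without a call, STAT3 in A549 and IL6R in T47D cells had no overlap and the others did. Over all genes tested, called or not, states did not overlap for 47.8% in A549, 60.2% in HCT-116, 51.2% in PC3 and 31.8% in T47D cells.

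**Figure D4:**
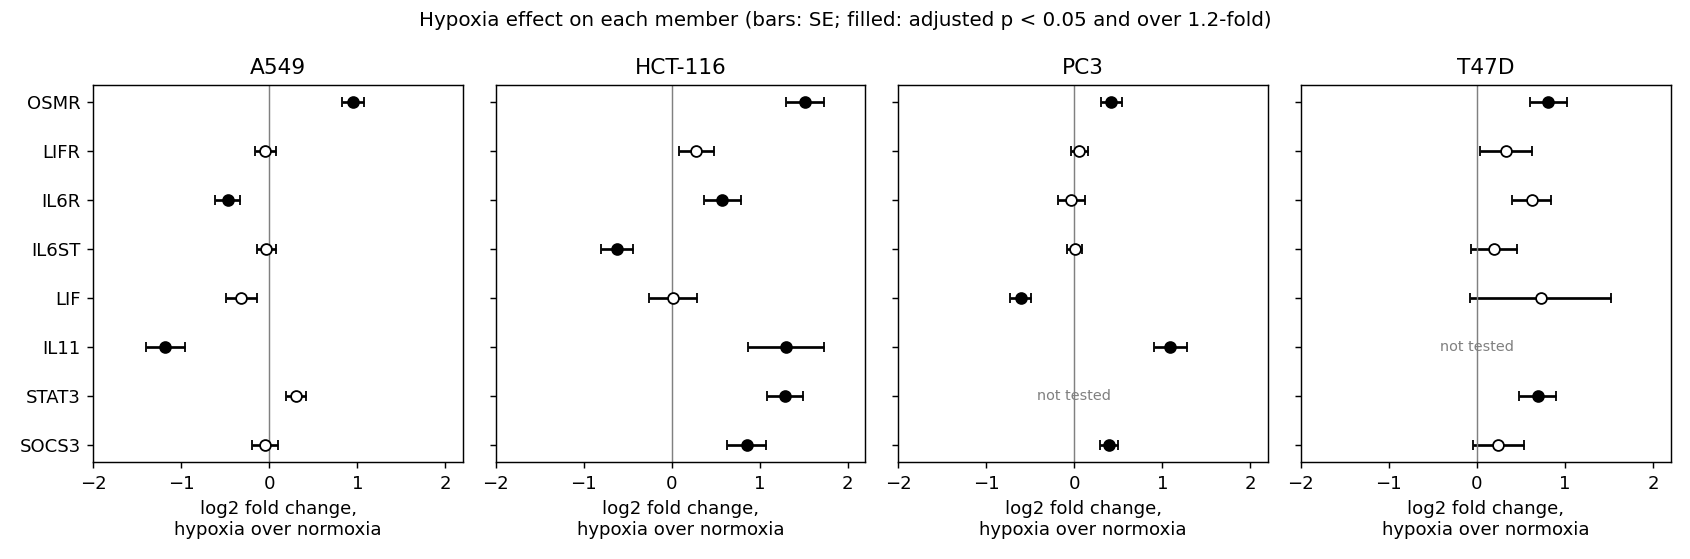
Log2 fold change of each of the 8 genes in hypoxia over normoxia, with 1 panel per cell line and the SE as bars; filled points passed the test (adjusted p under 0.05, fold change over 1.2). OSMR lies above 0 in the 4 lines (0.42 to 1.51), and IL11 lies below 0 in A549 cells (-1.18) and above it in HCT-116 and PC3 cells (1.30 and 1.09). STAT3 in PC3 and IL11 in T47D cells were not tested in the fit of their line.

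Compared with each other per length of transcript in normoxia, the members were ranked differently in the lines. In A549 cells STAT3 was the most abundant at 56.4 CPM per kb, followed by IL6ST at 34.3, OSMR at 23.3 and LIF at 21.9 CPM per kb, with LIFR last at 2.21 CPM per kb. In T47D cells IL6ST led at 66.7 CPM per kb with OSMR at 7.14 CPM per kb, and both ligands were under 0.1 CPM per kb. In HCT-116 and PC3 cells LIF led at 21.8 and 23.9 CPM per kb. These ranks are a description without a test. By level over the 24 libraries, the genes most like OSMR among 13293 with a mean count of at least 50 were MYADM (Pearson r = 0.96 of log2 CPM), CREB3L2, FOSL2, LAMC1 and SEMA4B. By deviation from the mean of the line they were FOXO3 (r = 0.98), NPEPPS, SREBF2, CREB3L2 and MYO1D. Among the members themselves, the deviation of OSMR went most closely with STAT3 (r = 0.92 over 24 libraries, with PC3 cells at 0 in both states), SOCS3 (0.71) and LIFR (0.58), and least with IL6ST (-0.30). The libraries behind such a correlation share their line, depth and oxygen state, which alone can raise r for genes that move with hypoxia.

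The other genes of the pathway, 60 in 6 lists, had more increases than decreases in each line. In A549 cells 13 of 48 tested genes rose and 5 fell (17.6% and 17.8% of all genes), and in HCT-116 cells 21 of 43 rose and 4 fell (23.3% and 27% of all genes). In PC3 cells 12 of 42 rose and 3 fell (16.6% and 15.7% of all genes), but 7 rose and 5 fell with the GC and length correction, and 8 rose and 7 fell with that correction and the replicate block. In T47D cells 7 of 44 rose and 0 fell (6.55% and 6.69% of all genes; 3 fell at an unadjusted p under 0.05 and 1 by DESeq2). Members of a list share regulators and are not replicates, and the lists were assembled with earlier results of these data known.

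Among the other ligands, CTF1, which encodes cardiotrophin-1, was upregulated in HCT-116 cells (log2 fold change 1.66 ± 0.45 SE, adjusted p = 0.00789) and in T47D cells (1.40 ± 0.27, adjusted p = 0.00749). CLCF1, a further ligand of the family, fell in A549 cells (-0.80 ± 0.14, adjusted p = 0.00151) and in PC3 cells (-0.44 ± 0.09, adjusted p = 0.00844). Both CLCF1 calls were lost in the single fit (0.0563 and 0.425), and CTF1 lost its HCT-116 call without hypoxia replicate 2 (1.11, adjusted p = 0.0739) and its T47D call without normoxia replicate 1 (0.0745). IL6, the founding cytokine, fell in PC3 cells, from 3.68, 5.40 and 4.89 CPM in normoxia to 1.30, 1.26 and 1.52 CPM in hypoxia (-1.80 ± 0.21, adjusted p = 0.00105). Outside PC3 cells IL6 was close to absent, with 2 to 22 counts per A549 library, 0 to 2 per HCT-116 library and 0 in T47D cells. In A549 cells its log2 fold change was 1.89 ± 0.70 (adjusted p = 0.0520, not called), with 2 to 10 counts in the normoxic and 13 to 22 in the hypoxic libraries. The hypoxia effect differed between lines for CTF1 (adjusted p = 0.0118) and IL6 (0.0141).

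Among the other receptors, IL31RA, which pairs with OSMR to receive interleukin-31, rose in A549 cells (1 of 3 tested; log2 fold change 0.73 ± 0.22 SE, adjusted p = 0.0232) and in PC3 cells (0.65 ± 0.20, adjusted p = 0.0358), with mean levels of 3.03 and 3.92 CPM in normoxia. Both calls were lost with the GC and length correction (adjusted p of 0.123 and 0.169) and in the single fit (0.165 and 0.226), and without 2 and 3 single libraries respectively. IL27RA, which pairs with IL6ST, rose in PC3 cells (0.43 ± 0.11, adjusted p = 0.0195), so that 2 of 3 receptors tested there were called up, where 16.6% of all genes were (17.6% in A549 cells). The IL27RA call was lost in the single fit (0.0804), with the GC and length correction (0.27, adjusted p = 0.0693) and without hypoxia replicate 1 or 2 or normoxia replicate 1 (0.0633 to 0.0889).

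Among kinases, STAT factors and adaptors, 3 of 10 rose and 2 fell in A549 cells (17.6% and 17.8% of all genes), 4 of 9 rose and 1 fell in HCT-116 cells (23.3% and 27%) and 2 of 8 rose in PC3 cells (16.6%). In T47D cells 0 of 10 passed by edgeR (0 up and 2 down at an unadjusted p under 0.05; 0 up and 1 down by DESeq2), where 6.55% of all genes rose and 6.69% fell. GAB1, the docking protein that links the receptors to MAP kinase signaling, rose in A549 (0.71 ± 0.22, adjusted p = 0.0275), HCT-116 (1.61 ± 0.32, adjusted p = 0.00116) and PC3 cells (0.69 ± 0.12, adjusted p = 0.00466), the A549 call being lost with library totals (0.0587) and without hypoxia replicate 1 or normoxia replicate 2 (0.104 and 0.111). JAK2, a receptor kinase, fell in A549 cells (-0.40, adjusted p = 0.0453) and rose in PC3 cells (0.58, adjusted p = 0.0252). The A549 call of JAK2 was lost in the single fit (adjusted p = 0.182), with the GC and length correction (0.153), RLE size factors (0.0506) or no filter (0.0605) and without any library but hypoxia replicate 3 (0.0900 to 0.207), and the PC3 call without hypoxia replicate 1 (0.36, adjusted p = 0.0751). STAT5B rose in A549 cells from 53.2, 54.5 and 57.5 to 73.3, 67.6 and 74.7 CPM (0.39, adjusted p = 0.0113) and fell in HCT-116 cells from 7.67, 7.96 and 5.38 to 1.92, 3.54 and 1.48 CPM (-1.62, adjusted p = 0.00152). The A549 value of STAT5B was 0.11 with the GC and length correction (adjusted p = 0.473), and the call was also lost in the single fit (0.205) and without normoxia replicate 1 (0.0602). JAK1, the main kinase of IL6ST, and GRB2, an adaptor, rose in HCT-116 cells (1.03 and 0.81, adjusted p of 0.00173 and 0.00588). STAT5B and STAT5A lie in the 322-kb run without counts in PC3 cells.

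Among the inhibitors, of which 10 were tested in each line, PTPN2, a phosphatase that acts on Janus kinases and STAT factors, fell in A549 (-0.55 ± 0.11, adjusted p = 0.00337), HCT-116 (-1.15 ± 0.21, adjusted p = 0.000653) and PC3 cells (-0.46 ± 0.13, adjusted p = 0.0220). Its PC3 call was lost in the single fit (0.0956), with the GC and length correction (-0.20, adjusted p = 0.135) and without any 1 hypoxic library (0.0592 to 0.0747). PIAS3, which restrains STAT3 on DNA, rose in the same 3 lines (0.38, 0.54 and 0.63, adjusted p of 0.0327, 0.0291 and 0.00883), but 3 left-out libraries each ended the call in A549 (0.0948 to 0.139) and in HCT-116 cells (0.0659 to 0.0926). The GC and length correction also ended the PIAS3 call in both lines (0.0618 and 0.0721), as did the single fit (0.0991) and library totals (0.119) in A549 cells. PIAS2, of the same family, rose in PC3 (0.78, adjusted p = 0.00271) and T47D cells (1.02, adjusted p = 0.00649). Its T47D call was lost without normoxia replicate 1 (1.01, adjusted p = 0.0675). In HCT-116 cells its value was -0.50 (adjusted p = 0.0466), a call that was lost under DESeq2 (0.0692), RLE size factors (0.0599), library totals (0.0965), the other filters (0.0567 and 0.108), the GC and length correction (0.0503) and all left-out libraries but hypoxia replicate 1 (0.0898 to 0.204). PIAS4 rose in HCT-116 and PC3 cells (0.97 and 0.36, adjusted p of 0.00205 and 0.0478). The PC3 call of PIAS4 was lost with the GC and length correction (0.13, adjusted p = 0.413), in the single fit (0.146), with library totals (0.0713) or no filter (0.0516) and without any library but hypoxia replicate 3 (0.0573 to 0.153). The list as a whole had 1 increase and 1 decrease in A549 cells, 3 and 3 in HCT-116, 3 and 1 in PC3 and 1 and 0 in T47D cells, beside the same shares of all genes as above (17.6% and 17.8%, 23.3% and 27%, 16.6% and 15.7%, and 6.55% and 6.69%). The count of 0 decreases by edgeR in T47D cells was 1 at an unadjusted p under 0.05 and 0 by DESeq2. Of the sheddases, which release receptor ectodomains, ADAM10 rose in A549 cells (0.52, adjusted p = 0.00305) and HCT-116 cells (0.56, adjusted p = 0.0339). The A549 call of ADAM10 was lost in the single fit (0.0598) and the HCT-116 call with library totals (0.0584) and without hypoxia replicate 2 or 3 or normoxia replicate 2 (0.0615 to 0.102).

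Of the genes known as STAT3 targets, 7 of 18 rose and 1 fell in A549 cells, 11 of 14 rose in HCT-116 cells, 5 of 14 in PC3 cells and 4 of 15 in T47D cells, where 17.6%, 23.3%, 16.6% and 6.55% of all genes rose. By edgeR 0 of them fell in HCT-116, PC3 and T47D cells (also 0 at an unadjusted p under 0.05 and by DESeq2), where 27%, 15.7% and 6.69% of all genes fell, beside 17.8% in A549 cells. ICAM1, an adhesion molecule, rose in all 4 lines. It went from 1.02, 1.58 and 1.59 CPM to 3.11, 4.89 and 3.79 CPM in A549 cells (1.49 ± 0.27, adjusted p = 0.00181) and from 52.6, 72.6 and 50.9 CPM to 80.5, 102 and 77.0 CPM in PC3 cells (0.54 ± 0.15, adjusted p = 0.0228), the line with the highest ICAM1 and no STAT3 counts. In HCT-116 and T47D cells its log2 fold changes were 0.79 and 1.33 (adjusted p of 0.0176 and 0.0333). The A549 call of ICAM1 held under every alternative. The others were lost in HCT-116 cells with the GC and length correction (0.0652) or without hypoxia replicate 3 (0.0648), in PC3 cells in the single fit (0.117) or without hypoxia replicate 2 or normoxia replicate 1 (0.0980 and 0.0848), and in T47D cells with library totals (0.0566) or without replicate 1 or 2 of either state (0.0805 to 0.181). BCL3, a transcriptional partner of NF-kappaB, rose in A549, HCT-116 and PC3 cells (0.39, 1.69 and 0.78, adjusted p of 0.0464, 0.000819 and 0.00575), the A549 call being lost in the single fit (0.310, and 0.0555 in PC3 cells), with library totals (0.142), with the GC and length correction (0.22, adjusted p = 0.234) and without 3 single libraries (0.0689 to 0.194). SERPINA1, the acute-phase protease inhibitor alpha-1-antitrypsin, rose in HCT-116, PC3 and T47D cells (1.30, 0.30 and 1.59, adjusted p of 0.0499, 0.0345 and 0.00117). Its HCT-116 call was lost with the GC and length correction (0.110) and without hypoxia replicate 2 or 3 or normoxia replicate 1 or 2 (0.0834 to 0.162). Its PC3 call was lost in the single fit (0.556), with library totals (0.0601), with the correction (0.19, adjusted p = 0.135) and without any library but normoxia replicate 3 (0.0654 to 0.114).

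The largest increase among the targets in HCT-116 cells was that of JUNB, an AP-1 subunit (2.28 ± 0.33 SE, adjusted p = 0.000197), which also rose in A549 cells (0.58, adjusted p = 0.00153). PIM1, a survival kinase, rose in A549 and HCT-116 cells (0.58 and 1.64, adjusted p of 0.00187 and 0.000685), and MYC, a growth regulator, in HCT-116 and T47D cells (1.08 and 1.01, adjusted p of 0.00253 and 0.0147). MCL1, which blocks apoptosis, rose in HCT-116 cells (1.06, adjusted p = 0.00127). TIMP1, an inhibitor of metalloproteinases, rose in HCT-116 and PC3 cells (0.60 and 0.42, adjusted p of 0.0147 and 0.0114), and IRF1, an interferon-regulatory factor, in T47D cells (0.96, adjusted p = 0.0386). In the single fit the A549 calls of JUNB and PIM1 (adjusted p of 0.126 and 0.108) and the PC3 call of TIMP1 (0.111) were lost. The HCT-116 call of TIMP1 was lost without hypoxia replicate 2 (0.0713) and the T47D call of MYC without normoxia replicate 1 or 2 (0.117 and 0.0501). The T47D call of IRF1 was lost with library totals (0.0692), with the GC and length correction (0.0521) and without replicate 1 or 2 of either state (0.119 to 0.173). CEBPB, a transcription factor of the acute-phase response, fell in A549 cells (-0.56, adjusted p = 0.0106) and rose in HCT-116 cells (1.2, adjusted p = 0.00642), the A549 call being lost in the single fit (0.169) and without hypoxia replicate 2 (0.0627). Of the 54 calls behind the named genes of the lists, 27 were lost when some 1 library was left out and 0 turned in direction under any alternative.

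**Figure D5:**
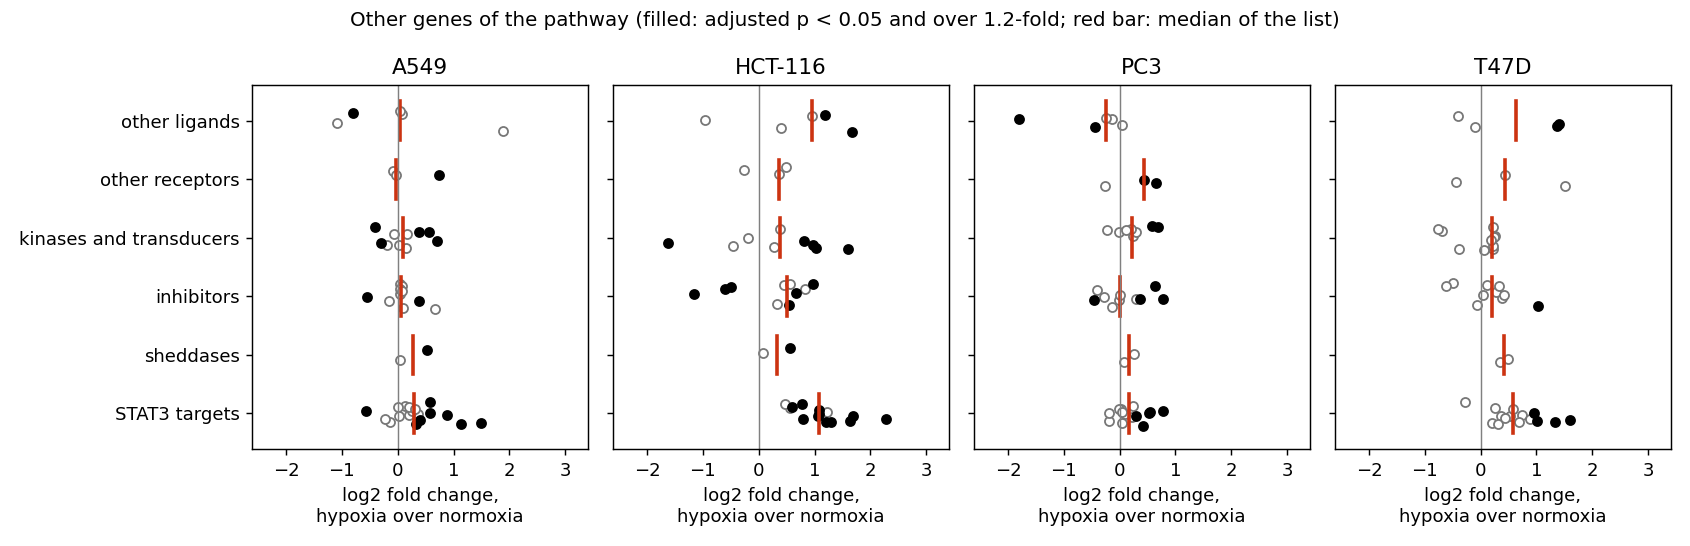
Log2 fold change in hypoxia over normoxia of the tested genes of the 6 other lists, with 1 panel per cell line and 1 row per list; each point is a gene, filled where it passed the same test as the members, and red bars are the medians of the lists. Among STAT3 targets 11 of 14 points are filled to the right of 0 in HCT-116 cells and 4 of 15 in T47D cells, and IL6 in PC3 cells is the filled point farthest to the left (-1.80).

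Markers of other cell types were measured in the same libraries. The 4 leukocyte markers summed to 5.63 CPM in normoxic and 26.6 CPM in hypoxic HCT-116 cells, of which CD68 gave 5.59 and 26.6 CPM, with CD3E at 0 in both states and PTPRC at 0 in hypoxia. In A549, PC3 and T47D cells the leukocyte sums were 29.3, 27.1 and 1.10 CPM in normoxia and 42.6, 32.3 and 1.5 CPM in hypoxia, again mostly CD68. The 5 fibroblast markers summed to between 14.1 and 43.5 CPM over the 8 groups, nearly all of it COL1A1, and the 3 endothelial markers to at most 1.86 CPM. The 4 epithelial markers, led by KRT8, summed to 1986 CPM in normoxia and 4643 CPM in hypoxia in HCT-116 cells and to 7291 and 13300 CPM in T47D cells, the lines with the largest member medians, and to 7696 and 8162 CPM in A549 and at 2972 and 3404 CPM in PC3 cells. Their part in the changes of the 8 genes was not tested.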

How the data were processed

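The authors trimmed the reads with Trim Galore 0.3.3, aligned them to GRCh37 (hg19) with HISAT2 2.05, used Picard 2.0.1 to drop fragments that did not map uniquely and counted UCSC gene models with HTSeq 0.5.4p3 (intersection-strict). What they deposited are unnormalized counts, 1 whole number for each gene symbol and library. The strand setting of the counting is not given in the sources used here.

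From the counts, edgeR 4.0.16 (R 4.3.3) was run on each line separately, with low genes removed by its default filter and libraries scaled by TMM factors, and calls needed an adjusted p under 0.05 over all genes tested and a fold change over 1.2. CPM values use the TMM-scaled totals, log2 levels a prior count of 2, and values per kb the longest GENCODE 44 transcript. Differences between lines came from a fit of all 24 libraries. The members and lists were chosen with earlier results of these data known. From each list, the genes named were those called in the same direction in at least 3 lines, those with the largest and smallest called change in a line, and called genes among the 5 smallest interaction p-values. Results for some listed genes are not reported here. Replicate numbers shared by both states in the labels were read as pairs in T47D cells only, where every same-numbered correlation of deviations exceeded 0.1 (0.154, 0.326 and 0.304). With the replicate number added as a block, the fit called 1281 genes up and 1485 down in T47D cells, against 922 and 942, and changed no member call there. Alternatives were DESeq2 1.42.0, RLE size factors, library totals, a minimum mean count of 50, no filter, the block, 1 fit of 24 libraries and each library left out. A GC content and transcript length correction (splines with 5 degrees of freedom) was chosen after the data were seen. Precision is limited by 3 libraries per group and by depth, where 3 counts correspond to 0.045 to 0.123 CPM on the TMM scale.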

Additional observations from a re-analysis of the deposited data

Results flagged for a closer look

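The hypoxia effect differed between the 4 lines, by the interaction of line and hypoxia in 1 edgeR fit of 24 libraries (n = 3 per group), for 4 of the 8 members. The adjusted p-values were 0.0213 for OSMR, 0.0105 for IL6R, 0.000852 for IL11 and 0.0243 for STAT3, the last with counts in 3 lines only. The OSMR difference was lost with the replicate block (0.0504) and without any of 7 single libraries (0.0509 to 0.0768), and that of STAT3 without any of 9 single libraries (0.0501 to 0.0862). With a replicate number left out of all lines, the STAT3 difference was lost without any of the 3 numbers (0.0658, 0.491 and 0.0862), that of OSMR without number 1 (0.0735) or 2 (0.538), that of IL6R without number 1 (0.143) or 2 (0.294) and that of IL11 without number 2 (0.0657). OSMR was higher in hypoxia in every line and differed in size, whereas IL6R was called up in HCT-116 cells and IL11 in HCT-116 and PC3 cells, and both were called down in A549 cells.

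Among the other ligands and receptors the test gave 0.0118 for CTF1, 0.0141 for IL6 and 0.0182 for IL27RA. Among kinases, STAT factors and adaptors it gave 0.00145 for STAT5B, 0.0129 for JAK2, 0.0233 for GAB1, 0.0349 for JAK1 and 0.0400 for GRB2. Among the inhibitors it gave 3.78e-05 for PIAS2 and 0.0263 for PIAS4. Among STAT3 targets it gave 0.000437 for JUNB, 0.00398 for PIM1, 0.00819 for MYC, 0.00869 for MCL1 and 0.0111 for CEBPB. STAT5B and CEBPB were called in opposite directions in A549 and HCT-116 cells, and JAK2 in A549 and PC3 cells. The A549 calls of STAT5B, CEBPB and JAK2 were each lost in the single fit of 24 libraries (adjusted p of 0.205, 0.169 and 0.182) and without at least 1 library. PIAS2 was called up in PC3 and T47D cells, and its call down in HCT-116 cells was lost under most alternatives. The T47D call of PIAS2 was lost without normoxia replicate 1 (adjusted p = 0.0675). The background of such differences was 18.3% of all genes tested.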

How the results depend on the processing

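The direction of every called member held under every alternative and every left-out library that gave a value, and OSMR in A549 and HCT-116 cells, IL11 in A549 and PC3 cells, and STAT3 and SOCS3 in HCT-116 cells also kept their calls. The OSMR to LIFR log2 ratio difference was 0.70 to 0.83 with 1 replicate number left out (exact permutation p = 0.00154 in each) and 0.77 with the replicate block (exact p = 0.000488), each p being the smallest its test can give. Uncalled values that turned sign were IL6R in PC3 cells (0.0123 in the single fit of 24 libraries), IL6ST in A549 cells (0.0371 with the GC and length correction and 0.0345 with it and the replicate block), IL6ST in PC3 cells (-0.0353 with library totals) and LIF in HCT-116 cells (-0.34 and -0.37 with that correction without and with the block, and -0.0137 with the block alone). The cause was not tested.

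The single fit of 24 libraries called 1182 genes down and 1427 up in A549, 425 and 867 in PC3 and 1599 and 2231 in T47D cells. It called 1 member down in A549, 0 down and 1 up in PC3 cells, and of the other pathway genes 1 down and 5 up in A549, 1 down and 4 up in PC3, and 2 down and 13 up in T47D cells. With the GC and length correction, 0 members fell in HCT-116 cells (also with the replicate block), 1 rose in T47D cells, and of the other pathway genes 8 rose in A549, 7 rose and 5 fell in PC3 and 1 fell in T47D cells. With that correction and the block, T47D cells had 1630 genes down and 1589 up, with 2 other pathway genes down and 11 up, and PC3 cells had 7 other pathway genes down. Library totals left 0 members up in T47D cells and 8 other pathway genes up in A549 cells. With that scaling 666 of all 14085 genes tested rose in T47D and 1778 of 13897 in A549 cells. DESeq2 called 2 members up in A549 cells, 1 other pathway gene down in T47D cells and 4463 genes with an interaction. RLE size factors gave 3 other pathway genes down in A549 cells, and no filter gave 3 in A549, 2 in HCT-116 and 1 in T47D cells.

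In A549, HCT-116 and PC3 cells some same-numbered correlations were under 0.1 (lowest 0.0703, in HCT-116 cells), and the numbers were not read as pairs there. All of these correlations were positive, however. In PC3 cells they were 0.0817, 0.0814 and 0.0786, against -0.0613 to -0.0174 for libraries of different numbers. Pairing in these lines thus remained possible. With the replicate block T47D cells had 1485 genes down, 1281 up and 1 other pathway gene down, the adjusted p of the OSMR interaction was 0.0504, and no other member call or difference was lost.

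With 1 library left out, genes down and up ranged from 1467 to 2629 and 1642 to 2702 in A549, 2719 to 3357 and 2591 to 3462 in HCT-116, 875 to 2732 and 1308 to 2629 in PC3, and 19 to 1756 and 180 to 1549 in T47D cells. Members down and up ranged from 1 to 2 and 1 to 2 in A549, 0 to 1 and 3 to 5 in HCT-116, 1 to 1 and 1 to 3 in PC3, and 0 to 0 and 0 to 3 in T47D cells. Other pathway genes down and up ranged from 2 to 5 and 8 to 14, 2 to 3 and 16 to 24, 2 to 3 and 6 to 14, and 0 to 1 and 1 to 10 in the same order of lines. With 1 library, or 1 replicate number of all lines, left out, interactions ranged from 165 to 3674 genes and from 0 to 6 members, with adjusted p from 0.00941 to 0.538 for OSMR, 0.00365 to 0.294 for IL6R, 0.000141 to 0.0657 for IL11 and 0.00936 to 0.491 for STAT3. Log2 fold changes that turned sign ranged from -0.152 to 0.0899 for IL6R in PC3, -0.0807 to 0.0268 for IL6ST in A549, -0.0245 to 0.0489 for IL6ST in PC3, -0.26 to 0.32 for LIF in HCT-116, -0.132 to 0.0236 for LIFR in A549, -0.00859 to 0.0981 for LIFR in PC3 and -0.20 to 0.13 for SOCS3 in A549 cells. Of the 54 calls of other named pathway genes, 34 were lost under at least 1 alternative, 19 of them in the single fit, 15 with the GC and length correction and 9 with library totals.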
